A study of Mus musculus with 2 samples.

Results

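Peak hubs, stretches of 100 kb in which Tcf1 binding peaks crowd together, were collected from the Tcf1 ChIP-seq of naive CD8+ T cells. The mouse chromosomes 1 to 19 were cut into 100-kb bins counted from position 1, and a bin was called a hub when it held at least 10 peak summits with a pileup, the number of WT fragments stacked over the summit, of 25 to 1000. Of 24731 bins, 109 were hubs (0.441% of all bins, and 1.4% of the 7774 bins with at least 1 such summit). The hubs held 1386 of the 22286 deposited peaks, 1302 of them with a pileup of 25 to 1000 and 84 with a lower pileup, down to 18. The 33 peaks with a pileup over 1000 on these chromosomes were left out by the rule, and 0 of them lay in a hub. The counts and pileups that chose the hubs, and the close spacing that follows from them, are given as a description. A hub here is a crowd of binding peaks on the linear genome, not a hub of chromatin loops.

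The series holds 2 libraries, 1 of wild type (WT) and 1 of Tcf1-deficient cells, both precipitated with a Tcf1 antiserum. The cells were naive CD8+ T cells from mouse spleen, sorted as GFP+, TCRbeta+, CD62Lhi and CD44lo-med, and the WT and deficient mice both carried hCD2-Cre and the Rosa26-lsl-GFP reporter according to the series record, with wild-type or floxed Tcf1 and Lef1 alleles. The Cre recombinase here is driven by the human CD2 promoter, and GFP from the reporter shows that it has recombined DNA in a cell. The labels give the control as Tcf1-/-Lef1-/- in one field and as Tcf1-deficient in another, and the methods of the study describe Cd4-Cre+ Tcf7 fl/fl mice, so the Cre line and whether Lef1 was also absent are not settled; Cd4-Cre acts already in the thymus. The mice were on a C57BL/6 background, 6 to 12 weeks old. With 1 library per group there was no replicate check and no test between the groups. Peaks of 1 hub share a locus and are not replicates, so the intervals given below cover counting error only.

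Tcf1, encoded by Tcf7, and its relative Lef1 are HMG-box transcription factors of the Tcf/Lef family. They bind a short DNA core, bend the helix, and work with co-activators such as beta-catenin or with Groucho co-repressors. In T cells they are required from the earliest thymic stages, and they help to set CD8+ lineage identity.

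The sequences below show what lies under the summits of such hubs. The tallest peak with the core was taken from 4 hubs with a low median level in the control library that held 3 or 4 peaks with a Tcf/Lef core, and the capitals mark the core, ATCAAAG or its complement CTTTGAT. Each line is the window of 100 bp to either side of a summit, on the plus strand of mm9. The peaks lay between genes 57.2 kb from the start of Arl4c (chr1:90541140-90541340, pileup 218), at the promoter of Cd8b1, the CD8 beta chain (chr6:71272519-71272719, pileup 520), at the promoter of Sec11a (chr7:88069623-88069823, pileup 41) and in an intron of Bach2 (chr4:32430770-32430970, pileup 153).
Arl4c: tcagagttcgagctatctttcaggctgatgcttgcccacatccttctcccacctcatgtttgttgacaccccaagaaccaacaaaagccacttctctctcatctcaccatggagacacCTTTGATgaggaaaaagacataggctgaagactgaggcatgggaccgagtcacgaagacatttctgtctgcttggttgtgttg
Cd8b1: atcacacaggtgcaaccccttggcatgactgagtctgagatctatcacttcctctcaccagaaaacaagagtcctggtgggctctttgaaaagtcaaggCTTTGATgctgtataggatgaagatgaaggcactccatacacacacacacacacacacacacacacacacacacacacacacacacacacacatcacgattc
Sec11a: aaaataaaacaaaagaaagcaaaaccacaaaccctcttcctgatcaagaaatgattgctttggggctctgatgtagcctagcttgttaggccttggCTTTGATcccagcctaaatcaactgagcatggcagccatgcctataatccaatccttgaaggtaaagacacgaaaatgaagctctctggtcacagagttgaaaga
Bach2: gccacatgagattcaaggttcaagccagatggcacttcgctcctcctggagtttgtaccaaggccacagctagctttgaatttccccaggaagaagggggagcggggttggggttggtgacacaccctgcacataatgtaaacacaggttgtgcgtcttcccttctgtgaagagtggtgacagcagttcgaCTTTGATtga
In the Cd8b1 and Sec11a windows the core was centred 2 bp and 1 bp from the summit, against 94 bp in the Bach2 window. The Cd8b1 window also holds a run of CA repeats downstream of the core.

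Other hub windows carried the core of ETS factors, CGGAAGT or ACTTCCG. In hubs with a low median level in the control library, these were 22 of 261 promoter windows and 22 of 941 distal windows. Promoter examples clear of annotated untranslated regions, from hubs with 3 and 2 ETS cores, lay at the start of Kifc1 (chr17:34027680-34027880, pileup 119) and of Wdr34 (chr2:29904549-29904749, pileup 79), and the capitals mark the ETS core.
Kifc1: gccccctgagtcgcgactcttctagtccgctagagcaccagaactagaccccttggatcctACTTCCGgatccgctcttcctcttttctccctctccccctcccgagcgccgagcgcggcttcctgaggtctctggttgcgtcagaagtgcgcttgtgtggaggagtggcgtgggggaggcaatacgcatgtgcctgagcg
Wdr34: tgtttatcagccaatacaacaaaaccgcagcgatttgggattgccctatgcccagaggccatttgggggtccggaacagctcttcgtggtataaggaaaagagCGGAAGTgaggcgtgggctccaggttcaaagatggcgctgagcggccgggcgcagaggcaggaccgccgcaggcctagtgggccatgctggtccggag
Both windows were GC-rich, with 62.2% and 59.7% G and C, against 42.3% to 51.7% in the windows with the Tcf/Lef core.

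Most bins with any summit held few of them, and the number of bins fell steeply as the summits per bin rose. Just inside the limit, 38 bins held exactly 10 summits, with a median pileup of 47, a promoter share of 28.9% and a Tcf/Lef core in 9.74% of windows. Just outside it, 64 bins held exactly 9 summits, with a median pileup of 47, a promoter share of 25.7% and a core in 7.81%. The rule therefore cuts through a continuous distribution. At the pileup limit, 78 hub peaks had a pileup of 25 or 26 and 39 had 23 or 24. The 84 hub peaks under a pileup of 25 included 22 at promoters and 11 with a Tcf/Lef core.

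**Figure D1:**
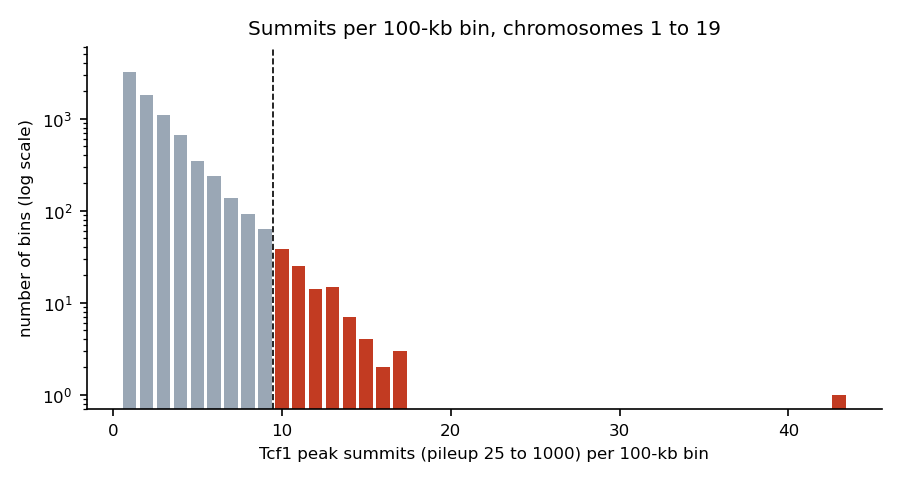
Number of 100-kb bins (vertical axis, log scale) by the number of Tcf1 peak summits they held (horizontal axis), chromosomes 1 to 19, with bins of 0 summits left out and the 109 hubs in red right of the dashed line. Counts fall from 3220 bins with 1 summit to 38 bins with 10, and 1 bin, at Sfi1, stands alone at 43.

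A small set of hubs stood apart in the control library. The control level is the background expected at the summit from the Tcf1-deficient library, scaled to the WT depth. It was computed from pileup and fold enrichment and is not a count of control fragments under the summit. Its lowest possible value, set by the genome-wide average, was 5.42. In 104 hubs the median control level sat at that floor. In the remaining 5 hubs it ran from 16.3 to 134. The hub at Sfi1 (chr11:3000001-3100000) held 43 summits, the most of any, with a median pileup of 221 and a median control level of 134, and 36 of its summits lay in Sfi1, which encodes a centrosomal protein. Only 1 of its 43 peaks reached a fold enrichment of 4, and its tallest, with a pileup of 507 in an intron (chr11:3081082-3081717), was 3.89-fold over the control.

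Neighbouring bins on chromosome 6 without a gene (chr6:47600001-47700000) and at Pdia4 (chr6:47700001-47800000), which encodes a protein disulfide isomerase of the endoplasmic reticulum, had median control levels of 29.8 and 16.3. In all 16 summit windows of the first and in 7 of the 14 of the second, at least 50% of the 31-base words occurred elsewhere in the same bin. The tallest peaks of these bins had pileups of 198 and 194 and fold enrichments of 4.48 and 5.84, and 10 of 16 and 11 of 14 of their peaks reached 4-fold. The Pdia4 bin also held 5 peaks with a control level at the floor, among them the Pdia4 promoter peak, 24.6-fold over the control. The bins at 4930467E23Rik (chr8:19700001-19800000) and Gm15319 (chr8:19900001-20000000) on chromosome 8 held 12 and 15 summits with median control levels of 26.1 and 40.8, and 1 and 0 of their peaks reached a fold enrichment of 4. Of windows with repeated words, the Sfi1 and Gm15319 hubs held 0 and the 4930467E23Rik hub 1. The other 104 hubs held 0 to 3 such windows each, and copies outside the bin were not counted. The part of repeated sequence in the control levels was not tested.

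**Figure D2:**
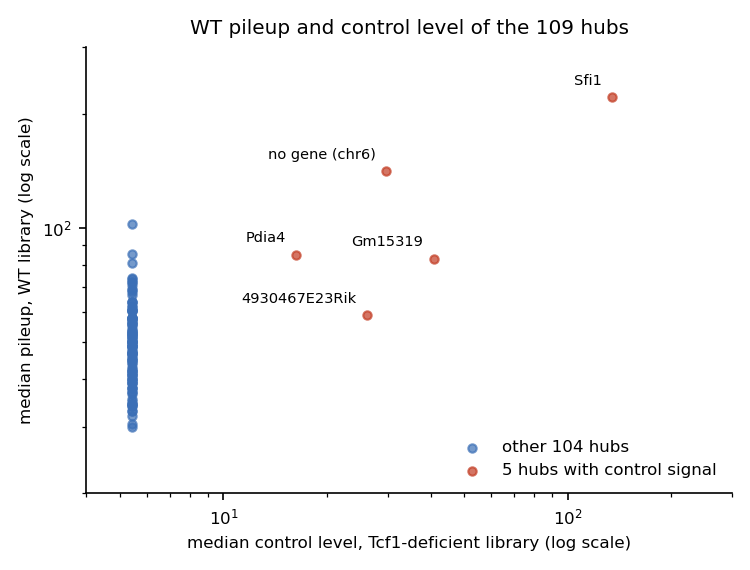
Median WT pileup (vertical axis, log scale) against the median control level in the Tcf1-deficient library (horizontal axis, log scale), 1 point per hub. The 104 blue hubs stack at the floor of 5.42, and the 5 labelled red hubs lie between 16.3 and 134.

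A fold enrichment of at least 4 was reached by 1197 of the 1386 hub peaks (86.4%, 95% Wilson interval 84.5 to 88.1), against 86.3% of all peaks of chromosomes 1 to 19 with a pileup of at most 1000. The sets differ in how many peaks of low pileup they hold. Among peaks with a pileup of 25 to 1000, the share was 91.9% (90.3 to 93.3) in all 109 hubs and 97.7% (96.7 to 98.4) in the 104 with a median control level at the floor, against 96.5% (96.2 to 96.7) outside hubs. The peaks outside hubs were not filtered on control level, unlike the 104 hubs. Over all members the share was 1174 of 1286 (91.3%) without the 5 hubs that had signal in the control library, and 23 of 100 in those 5. None of the 84 peaks under a pileup of 25 reached 4-fold (0 of 84), so the pileup minimum and this fold limit overlap. A fold enrichment of at least 20 was reached by 133 of the 1202 peaks with a pileup of 25 to 1000 in the 104 hubs (11.1%, 9.41 to 13.0), against 7.75% of all such peaks and 7.57% (7.19 to 7.96) of those outside hubs. In bins of 5 to 9 summits it was 9.46% (8.71 to 10.3), which overlapped the hub interval, and over all 109 hubs it was 10.3% (8.76 to 12.1). In 79 of the 104 hubs at least 1 peak reached it. At a control level at the floor, fold enrichment follows from the pileup alone, which the rule used. The shares at 4-fold and 20-fold therefore largely restate pileup and are a description. From here on, values refer to the 104 hubs with a median control level at the floor (1004 of 1202 single peaks, 83.5%, sat at it) and their 1202 peaks with a pileup of 25 to 1000, unless all 109 are named.

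Each of the 104 hubs held 10 to 17 summits, with a median of 11. The hub peaks had a median pileup of 47 (order-statistic 95% interval 45 to 50), against 43 (43 to 44) for the 18193 peaks outside hubs, and over all 109 hubs the median was 51 (47 to 53). The hub medians ran from 30, at the Ifit genes on chromosome 19, to 102.5, in a stretch of chromosome 9 without an annotated gene. Within a hub the heights were uneven: the tallest peak carried a median of 24.7% of the summed pileup, from 12.3% to 52.8%, and in 49 hubs it had a pileup of at least 200. Hub peaks were also wider, with a median of 518.5 bp (497 to 541) against 475 bp (471 to 480). Neither pair of intervals overlapped. The nearest bins, of 5 to 9 summits, lay between, with a median pileup of 46 (45 to 47) and a width of 496.5 bp (488 to 505), and both intervals overlapped those of the hubs. The difference in height was small beside the range of hub medians. Neither difference was tested.

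Neighbouring summits within a hub lay a median of 4358 bp apart (4002 to 4743), against 10850 bp (10459 to 11223) between neighbours that shared a bin outside hubs, which the rule largely fixes. Of the 1098 gaps, 24.95% were at most 2 kb and 77.2% at most 10 kb. The summits were not packed into a single cluster: they spanned a median of 79.8 kb of the 100-kb bin, from 39.8 to 98.6 kb, and the widest gap in a hub had a median of 22.7 kb. Per hub, the median gap ran from 1664 bp to 13307 bp. By chromosome, hubs were most frequent on chromosome 11, with 12 (9.85 per 100 Mb), followed by chromosome 15 with 8 (7.73 per 100 Mb), and least frequent on chromosome 3 with 3 (1.88 per 100 Mb).

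Hub peaks lay away from gene starts more often than other peaks did. A summit was called a promoter peak when it fell within 1 kb of any annotated transcript start. This held for 261 of 1202 hub peaks (21.7%, 19.5 to 24.1), against 7360 of 18193 peaks outside hubs (40.5%, 39.7 to 41.2); over all 109 hubs it was 281 of 1302 (21.6%, 19.4 to 23.9). The share fell stepwise with crowding, from 44.0% (43.1 to 44.9) in bins of 1 to 4 summits to 32.1% (30.9 to 33.4) in bins of 5 to 9. Introns took up the difference, holding 45.8% (43.0 to 48.6) of hub peaks against 29.7% (29.1 to 30.4) of the others. Intergenic peaks made up 29.4% against 27.5% and exonic ones 3.16% against 2.36%, with overlapping intervals. The nearest start lay a median of 7.17 kb from a hub peak and 3.28 kb from another peak. Hubs were chosen on summit number while bins hold few gene starts, as given next. How far that choice sets the promoter share was not tested.

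**Figure D3:**
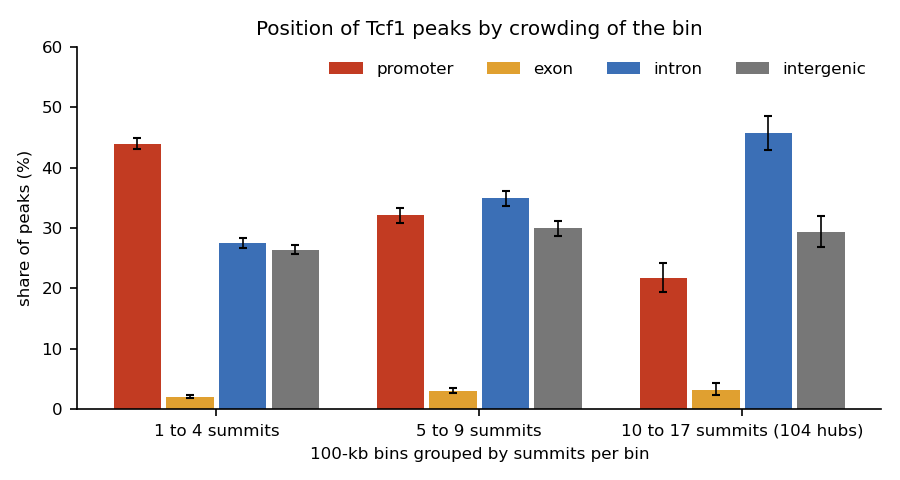
Share of peaks (vertical axis, percent) at promoters, in exons, in introns and between genes, for bins grouped by summits per bin, with the 5 hubs with control signal left out and error bars giving 95% Wilson intervals. Promoter peaks fall from 44.0% through 32.1% to 21.7%, while introns rise from 27.5% through 34.9% to 45.8%.

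The number of genes did not follow the same path. Hubs held a median of 1 start of a protein-coding gene (mean 2.29), bins of 5 to 9 summits a median of 2 (mean 2.59) and bins of 1 to 4 a median of 1 (mean 1.66). At least 1 such start lay in 78.8% (70.0 to 85.6) of the hubs and 83.4% (80.8 to 85.7) of the bins of 5 to 9. Of the 104 hubs, 22 had no protein-coding start, 5 had no protein-coding gene at all, 18 had 0 promoter summits, and in 1, at Ubtf and Atxn7l3, all 10 summits were at promoters. The tallest peak was a promoter peak in 26 hubs (25%, 17.7 to 34.1).

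The Tcf/Lef core was looked for as ATCAAAG, reading both strands, up to 100 bp from each summit. It was present in 125 of 1202 hub windows (10.4%, 8.80 to 12.3), against 9.95% (9.52 to 10.4) of windows outside hubs, so the shares did not differ beyond counting error. Windows of the same length 2 kb to either side held it in 3.29% (2.64 to 4.08), and the reversed word GAAACTA occurred in 2.33% of hub windows. Over all 109 hubs the core share was 10.5% (8.97 to 12.3). The core sat close to the summit, with its centre a median of 19 bp away (11 to 27). In 29 of the 104 hubs (27.9%, 20.2 to 37.2) the tallest peak carried it, 25 hubs had 0 windows with it, and 7 had at least 3. A missing core says only that these letters are not in the window.

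The ETS core CGGAAGT and the Runx core TGTGGTT were searched in the same way on both strands, and 0 windows held overlapping matches of different cores. The ETS core occurred in 3.66% (2.74 to 4.88) of hub windows and 7.09% (6.72 to 7.47) of others, with 4.99% (4.44 to 5.60) in bins of 5 to 9 summits, which overlapped the hub interval, and the Runx core in 15.0% (13.1 to 17.1) and 15.3% (14.8 to 15.8). ETS and Runx factors are partners of Tcf1 at many T cell enhancers. Since the 3 cores differ between promoters and distal sites, hub and other peaks were also compared within each class. At promoters, the ETS core was found in 8.43% (5.63 to 12.4) of hub windows against 13.3% (12.6 to 14.1) of others, and the Tcf/Lef core in 7.28% (4.71 to 11.1) against 4.82% (4.36 to 5.34). At distal sites, the Runx core was found in 17% (14.7 to 19.5) of hub windows against 21.6% (20.8 to 22.4), the Tcf/Lef core in 11.3% (9.40 to 13.4) against 13.4% (12.8 to 14.1), and the ETS core in 2.34% (1.55 to 3.51) against 2.83% (2.54 to 3.16). Only the intervals for ETS at promoters and Runx at distal sites were apart. The reversed ETS word TGAAGGC occurred in 1.92% of hub promoter windows and 3.08% (2.15 to 4.39) of hub distal windows. At distal sites the ETS core was thus no more frequent than this reversed word, though flanking windows held the core in 0.797%. Of the 125 hub windows with the Tcf/Lef core, 14 also held the Runx core and 1 the ETS core, and 72.4% of hub windows held none of the 3, against 69.9% of the others.

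**Figure D4:**
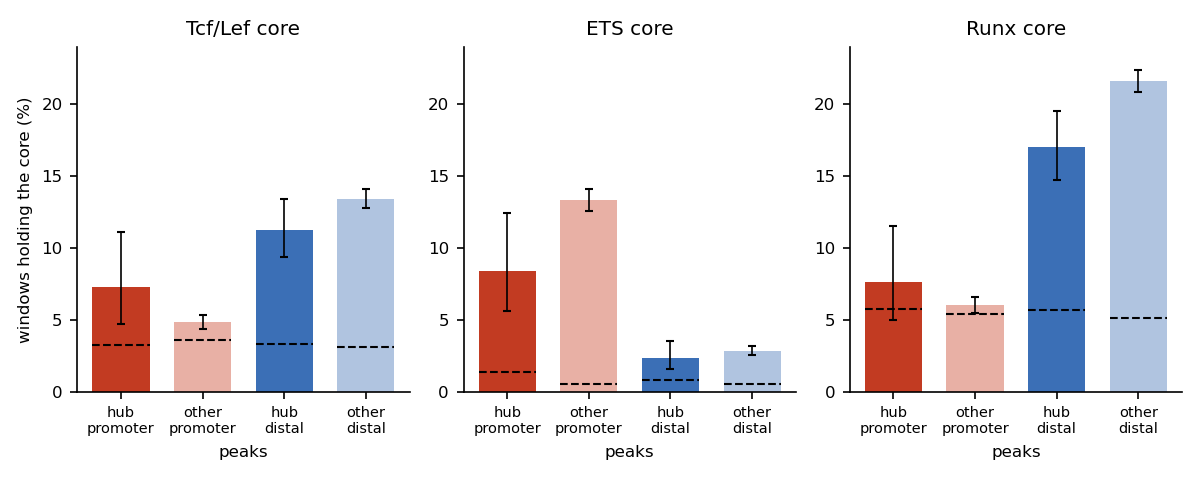
Share of summit windows, 100 bp to either side (vertical axis, percent) holding the Tcf/Lef, ETS or Runx core, for promoter and distal peaks of the 104 hubs and for peaks outside hubs; error bars are 95% Wilson intervals and dashed lines the share in flanking windows 2 kb away. The ETS bar of hub promoters (8.43%) stands below that of other promoters (13.3%), and the Runx bar of hub distal peaks (17%) below that of other distal peaks (21.6%).

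The promoters inside hubs differed from all those outside in base composition. Their windows had a median of 57.2% G and C (55.2 to 59.2) and 8 CpG pairs (6 to 10), against 62.2% and 16 (15 to 16) at promoters outside hubs, and their peaks were wider, with medians of 591 bp and 534 bp. The distal windows had medians of 48.8% G and C and 3 CpG pairs in both groups. GC content thus moved with the lower ETS share at hub promoters; its part in that difference was not tested.

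By their layout the 104 hubs were put into 4 groups, the promoter-rich ones first: 40 of the others with at least 75% of summits in 1 protein-coding gene and 1 kb upstream of it, 15 promoter-rich hubs with at least 50% of summits at promoters, 13 with at least 75% of summits between genes, and 36 of mixed layout. The median pileup was 48.5 (45 to 52), 44 (38 to 50), 48 (41 to 56) and 47 (44 to 52) in this order, and the Tcf/Lef core was present in 10.4%, 10.2%, 10.3% and 10.5% of their windows. The ETS core ran from 1.48% (0.720 to 3.03) in the single-gene hubs to 8.92% (5.39 to 14.4) in the promoter-rich ones, whose definition selects promoters. The 4 groups could not be told apart by pileup, Tcf/Lef core or Runx core.

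In 16 of the 40 single-gene hubs every counted summit lay in the named gene. Transcription and chromatin factors are given first. Lef1 (chr3:130800001-130900000) held 13 of 15 summits. Bach2, a transcriptional repressor (chr4:32400001-32500000), held 11 of 11. Fli1 (chr9:32300001-32400000) and Ets1 (chr9:32500001-32600000), neighbouring ETS factors, held 11 of 13 and 13 of 13. Smad3, which carries TGF-beta signals to the nucleus (chr9:63500001-63600000), held 10 of 10. Tcf7 itself (chr11:52000001-52100000) held 10 of 13, and Satb1, a chromatin organizer of T cells (chr17:51900001-52000000), 10 of 12. Elf1, a further ETS factor (chr14:79900001-80000000), Chd7, a chromatin remodeller (chr4:8700001-8800000), and Vgll4, a cofactor of TEAD proteins (chr6:114800001-114900000), held 9 of 12, 9 of 10 and 11 of 11.

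Further single-gene hubs lay over genes of signalling. Ptprc, the phosphatase CD45 (chr1:140000001-140100000), held 9 of 11 summits, and Prkcq, the kinase that acts below the T cell receptor (chr2:11100001-11200000), 12 of 12. Itpkb, which phosphorylates inositol trisphosphate, filled neighbouring bins (chr1:182200001-182300000 and chr1:182300001-182400000) with 8 of 10 and 9 of 10. Jak1, a kinase of cytokine receptors (chr4:100800001-100900000), held 11 of 11, Prkch (chr12:74700001-74800000) 10 of 10, Pik3r5, a PI3-kinase regulatory subunit (chr11:68200001-68300000), 10 of 11, Rasa3 (chr8:13600001-13700000) 9 of 11, Fyb, an adaptor of T cell adhesion (chr15:6500001-6600000), 10 of 13, Akap13 (chr7:82700001-82800000) 12 of 12 and Dock10 (chr1:80700001-80800000) 9 of 10. Of enzymes that build glycans, St8sia1 (chr6:142800001-142900000) held 15 of 15 and St6gal1 (chr16:23200001-23300000) 12 of 13.

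Genes of the cytoskeleton and others completed the group. Fnbp1 (chr2:30900001-31000000) held 10 of 11 summits, Sept9 (chr11:117100001-117200000) 10 of 10, Myh9, a non-muscle myosin (chr15:77600001-77700000), 10 of 11, Ablim1 (chr19:57100001-57200000) 13 of 13 and Fam49b (chr15:63800001-63900000) 10 of 11. The translation factor Eif4e3 (chr6:99300001-99400000) held 14 of 14 and Eif2c2, the Argonaute protein of RNA silencing (chr15:72900001-73000000), 10 of 12. Sae1, of the SUMO-activating enzyme (chr7:16900001-17000000), held 10 of 13 and Rnf157 (chr11:116200001-116300000) 8 of 10. Fam107b (chr2:3600001-3700000) held 13 of 13, Fam78a (chr2:31900001-32000000) 10 of 12, C130039O16Rik (chr12:85500001-85600000) 10 of 13, Ubac2 (chr14:122300001-122400000) 14 of 14 and Gramd3 (chr18:56600001-56700000) 9 of 10. At Ankrd11 (chr8:125500001-125600000) and Galnt2 (chr8:126700001-126800000) the count of 11 of 11 belongs to Gm20388, a model whose span covers both genes.

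The 15 promoter-rich hubs held 0 to 15 protein-coding starts per bin, with a median of 6. All 10 summits at Ubtf, a factor of ribosomal RNA transcription (chr11:102100001-102200000), were promoter peaks, as were 8 of 10 at Set and Zdhhc12 (chr2:29900001-30000000) and 7 of 10 at Daxx and Tapbp (chr17:34000001-34100000). Lck, the kinase that phosphorylates the T cell receptor complex (chr4:129200001-129300000), the histone genes around Hist1h2be (chr13:23600001-23700000), the Ifit genes of the interferon response at Lipa (chr19:34600001-34700000), Hmha1 (chr10:79400001-79500000) and Slc16a5 and Hn1 (chr11:115300001-115400000) had 6 promoter summits each, out of 11 at the histone genes and out of 10 at the others. Prrg2 and Flt3l (chr7:52300001-52400000) had 7 of 13, and Supt5h and Plekhg2 (chr7:29100001-29200000), Hnrnpl and Rinl (chr7:29500001-29600000), Mob3a and Btbd2 (chr10:80100001-80200000) and Sema4d (chr13:51800001-51900000) had 5 of 10 each. The last of the group, at the T cell receptor alpha joining segments (chr14:54700001-54800000), had 7 of 13, and all 7 lay at starts of receptor gene segments. The histone genes are near-identical copies, so peaks there are uncertain in position.

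The 13 intergenic hubs were named by the gene nearest to their tallest peak or by a gene in the bin. The bin beside Tcf7 (chr11:52100001-52200000) held 11 intergenic summits of 12, the bin whose tallest peak lay 230 kb from the nearest annotated transcript start of Ets1 (chr9:32700001-32800000) 10 of 10, the bin of Il6st, the shared receptor chain gp130 (chr13:113200001-113300000), 10 of 12, the bin at Cxcr5, a chemokine receptor (chr9:44300001-44400000), 10 of 13, and the bin at Thy1, a T cell surface protein (chr9:43800001-43900000), 8 of 10. Anti-proliferative genes of resting T cells were nearest in 2 bins, Btg1 at 108 kb (chr10:96100001-96200000) with 10 of 10 and Btg2 (chr1:135900001-136000000) with 8 of 10. Grap2, the adaptor Gads (chr15:80400001-80500000), had 12 of 15 and 3 core-carrying peaks. The others were Glrp1 beside Arl4c (chr1:90400001-90500000, 9 of 10), Klhl25 (chr7:82900001-83000000, 8 of 10), Fam113b (chr15:97200001-97300000, 9 of 10), and stretches without a protein-coding gene on chromosome 7 (chr7:80700001-80800000, 11 of 11) and chromosome 9 (chr9:61500001-61600000, 12 of 12).

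The 36 mixed hubs included further genes of T cells. The CD8 co-receptor genes Cd8b1 (chr6:71200001-71300000) and Cd8a (chr6:71300001-71400000) lay in neighbouring bins with 11 and 10 summits. Cd5 and Cd6, inhibitory surface receptors, shared a bin (chr19:10800001-10900000) of 16. Of these summits, 9 lay in the gene A430093F15Rik, 2 in Cd5 and 3 in Cd6, with 1 kb upstream included. Receptors were represented by Il2ra (chr2:11500001-11600000, 10 summits), Tgfbr2 (chr9:116000001-116100000, 14), Ccr7, the lymph node homing receptor (chr11:99000001-99100000, 10), and Ifnar2, Ifnar1 and Il10rb (chr16:91400001-91500000, 10). Regulators were represented by Klf2 (chr8:74800001-74900000, 12), Ikzf3 (chr11:98300001-98400000, 11), Smad7, an inhibitor of TGF-beta signalling (chr18:75500001-75600000, 13), Txnip (chr3:96300001-96400000, 10) and Irf2bp2 (chr8:129100001-129200000, 11). Further mixed hubs lay at Arl4c (chr1:90500001-90600000, 17), at the Gimap genes (chr6:48600001-48700000, 17), at Tnf and H2-D1 (chr17:35300001-35400000, 17), at Dad1 behind the T cell receptor alpha constant gene (chr14:54800001-54900000, 11), at Ptpn22, a phosphatase that restrains receptor signalling (chr3:103600001-103700000, 10), and at Rhoh (chr5:66200001-66300000, 13).

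The remaining mixed hubs lay at Fam102a (chr2:32300001-32400000, 11 summits), Rbm38 (chr2:172800001-172900000, 11), Ugcg (chr4:59200001-59300000, 12), Ubxn11 and Cd52 (chr4:133600001-133700000, 11), Cnr2 (chr4:135400001-135500000, 12), Tpst2 (chr5:112700001-112800000, 12), Gtf2i (chr5:134700001-134800000, 14) and Lfng, a modifier of Notch receptors (chr5:141000001-141100000, 10). Others were a non-coding gene near Pgpep1l (chr7:75400001-75500000, 13), Sec11a (chr7:88000001-88100000, 11), Os9 and Cdk4 (chr10:126500001-126600000, 10), 4930415F15Rik (chr11:11400001-11500000, 11), Rnf43, which removes Wnt receptors from the cell surface (chr11:87500001-87600000, 11), 2310044G17Rik (chr12:88200001-88300000, 10) and Ubac2 and Timm8a2 (chr14:122400001-122500000, 14). The last were Nsmce2 and Trib1 (chr15:59400001-59500000, 11), Celsr1 and Gramd4 (chr15:85800001-85900000, 11) and D16Ertd472e (chr16:78500001-78600000, 10).

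Genes of T cells were counted in the hubs from 8 lists. Of all 21418 protein-coding genes of these chromosomes, 292 (1.36%) overlapped a hub and 238 (1.11%) had their start in one. Of 40 T cell transcription factors, 8 overlapped a hub (20%, 10.5 to 34.8): Bach2, Ets1, Fli1, Ikzf3, Klf2, Lef1, Satb1 and Tcf7. Of 28 genes of the T cell receptor complex and its signalling, 8 did (28.6%, 15.3 to 47.1), among them Cd5, Cd6, Cd8a, Cd8b1, Lck, Prkcq and Ptprc. Of 24 receptors and homing molecules annotated on these chromosomes, 5 did (20.8%, 9.24 to 40.5): Ccr7, Cxcr5, Il2ra, Il6st and Tgfbr2. The Gimap genes, GTPases of lymphocyte survival, were in a hub in 7 of 8 cases, but all 7 share 1 bin. In total, 24 hubs overlapped a listed gene.

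The other lists were short and gave few members. Of 16 cytotoxic effector genes only Tnf overlapped a hub (6.25%, 1.11 to 28.3). Of 14 genes of MHC and antigen presentation H2-D1 and Tapbp did (14.3%, 4.01 to 39.9), and of 10 Wnt feedback genes Rnf43 (10%, 1.79 to 40.4). These intervals overlapped that of the transcription factors, and those of the MHC and Wnt lists lay above the 1.36% of all genes. Of 19 B cell and myeloid genes, such as Pax5, Ebf1 and Csf1r, 0 overlapped a hub (0%, 0 to 16.8), an interval that includes the 1.36% of all genes. Peaks do not measure expression, so the labelled cell type could not be checked from them. Counted by gene starts, the shares were 12.5% for the transcription factors and 17.9% for receptor signalling. Long genes meet a bin more easily than short ones. The lists were chosen with results of these data known, so the counts are a description.

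The tallest hub peak lay between genes 31.2 kb from the start of Tcf7. This peak (chr11:52126992-52128354) had a pileup of 997 and a fold enrichment of 142, and it carried the Tcf/Lef core. Within the same bin, a peak with a pileup of 232 also carried the core, and peaks of 413, 170, 90 and 68 did not. The other counted peaks of this bin had pileups of 27 to 45. At the Tcf7 promoter, in the neighbouring hub, a core-carrying peak (chr11:52096522-52098311) had a pileup of 367 and a fold enrichment of 20.02, and the other 12 counted summits of that bin had pileups of 27 to 71. Together the 2 bins held 25 counted summits, 4 of which carried the core. The tallest signal thus stood at and upstream of the gene of the factor, with low peaks across the gene body.

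The Lef1 hub differed in that its tallest peak lacked the core. This peak, 4.36 kb upstream of the gene (chr3:130808600-130809412), had a pileup of 474, a fold enrichment of 36.4 and a control level of 12.03. Promoter summits had pileups of 51 and 112. In the introns the pileups were, in order along the gene, 31, 152, 52, 52, 36, 73, 51, 122, 90, 29 and 165, and the first of 52 and the last carried the core.

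At the CD8 locus, the promoter peak of Cd8b1 (chr6:71272119-71273142) rose to a pileup of 520 and a fold enrichment of 81.2. It was the tallest promoter peak of any hub, and the other counted peaks of its bin had pileups of 35 to 60. Cores were found in this peak and in those of 53, 41 and 51. In the neighbouring Cd8a bin the pileups were lower and more even, from 27 to 90, with 52 at the Cd8a promoter and 0 cores. The tallest there lay between genes, 15.8 kb from the start of Cd8a.

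**Figure D5:**
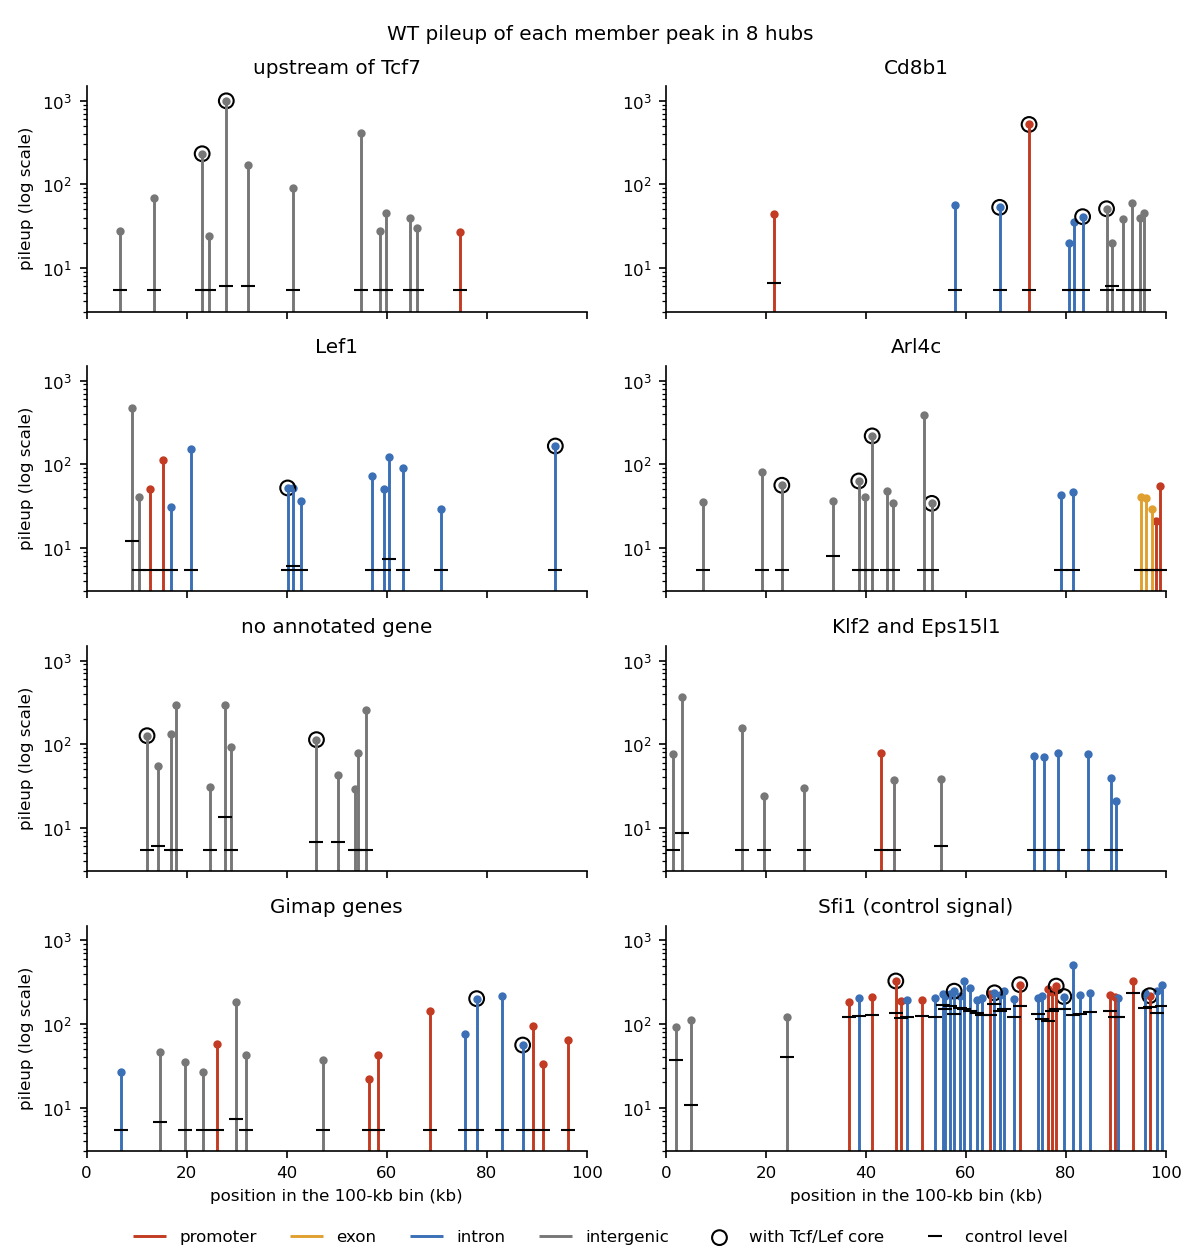
WT pileup (vertical axis, log scale) of every member peak in 8 hubs against its position in the 100-kb bin (horizontal axis, kb), coloured by position class, with circles for the Tcf/Lef core and black dashes for the control level. The bin upstream of Tcf7 rises to 997 and Cd8b1 to 520, while at Sfi1 the dashes stand close under the peaks, with a median of 134.

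The stretch of chromosome 9 without an annotated gene had the highest median pileup of the 104 hubs, 102.5. Its 12 pileups were, in order, 126, 55, 131, 290, 31, 295, 92, 113, 43, 29, 79 and 253, all between genes. The first and the eighth carried the core. The tallest (chr9:61527283-61527973) was 20.6-fold over a control level of 13.4, and the nearest annotated start, of Rplp1, lay 235 kb away. At Fam113b the median was 85.5, and the tallest peak (chr15:97288795-97289707, pileup 253, 39.6-fold) lay 212 kb from the nearest start, that of Amigo2. A single peak there, of 104, carried the core.

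In Smad3 all 10 summits were intronic and 0 carried the core. The median pileup was 81, and peaks of 331 and 381 stood over others of 26 to 151. The tallest (chr9:63588064-63588942) had a fold enrichment of 59.5. In the hub of Klf2, a factor that keeps naive T cells quiescent and homing, the promoter of Klf2 had a pileup of 78. Taller peaks of 366 (chr8:74802941-74803653, 37.9-fold) and 154 stood between genes on one side, and peaks of 39 to 78 lay in introns of Eps15l1 on the other. None of the 14 summits of that bin carried the core (0 of 12 counted).

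Tpst2, Rbm38 and St8sia1 gave further examples. At Tpst2, the tallest peak (chr5:112702753-112703521, pileup 221, 34.6-fold) and a neighbour of 88 lay just upstream of the gene, and both carried the core. At Rbm38 the tallest was a promoter peak of 231 (chr2:172848881-172849599, 36.1-fold) without the core, and the core lay in an intergenic peak of 92. In St8sia1 the 15 summits were low and even, from 25 to 92, with the core in the peak of 26. These hubs thus reach their count with both steep and flat profiles.

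The hub of Cd5 and Cd6 had its tallest peak between genes, beyond the 3′ end of Cd6 and 5.44 kb from the nearest annotated transcript start of that gene (chr19:10861693-10862381, pileup 207, 32.4-fold). The Cd5 promoter had a pileup of 92, and the core was found in 1 peak, of 34. The Arl4c hub had 17 counted summits, 11 of them intergenic, with a tallest peak of 383 (chr1:90551134-90552448, 59.8-fold) and cores in peaks of 56, 63, 218 and 34. The Gimap hub had 17 as well, from 27 to 218, with its tallest peak (chr6:48682499-48683857, 34.1-fold) in an intron of Gimap1, cores in 2 other intronic peaks of that gene and a promoter peak of 142 at Gimap1 and Gimap7. At Tnf and H2-D1 the 17 counted pileups ran from 25 to 112, with 66 at the Ltb promoter, 75 at Lta and 52 at H2-D1, a peak of 21 at the Tnf promoter that was too low to count, and 0 cores. The Gimap and H2 genes have close relatives, so reads there can be shared between copies.

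Other tall peaks stood in hubs of listed genes. In Ptprc an intronic core-carrying peak (chr1:140058975-140059897) had a pileup of 500 and a fold enrichment of 78.1, against 25 to 279 for the other counted summits of its bin. Near Il6st an intergenic core-carrying peak 50.1 kb from its start (chr13:113214358-113215822) had 580 and 90.5-fold. Behind the T cell receptor alpha constant gene Trac, 12.9 kb from its start, a core-carrying peak (chr14:54852689-54853531) had 453 and 43.8-fold, next to one of 409 without the core, and the Trac promoter had 197. In Fli1 the tallest peak had 318 (49.7-fold), in Prkcq 286 (31.8-fold) and in Ets1 173 (24.8-fold), all intronic and without the core. Ccr7 had its tallest peak, of 209 (20.3-fold), at the promoter.

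Low-lying hubs of listed genes completed the range. At Satb1 the counted pileups ran from 25 to 122, with promoter summits of 42, 51, 53 and 32. In the Lck bin they ran from 26 to 129, with the tallest peak in an intron and core-carrying. Of the 6 promoter summits of this bin, those at Lck had pileups of 28, 124 and 28. In Bach2 the counted pileups ran from 26 to 153, with cores in 40, 153 and 34. At Cxcr5 the tallest, of 166 (26.02-fold), lay 6.79 kb from the gene start, and the promoter had 48.

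Hubs touched each other in 7 places, 6 of them with median control levels at the floor. These were chr1:90400001-90600000 at Glrp1 and Arl4c with 27 counted summits, chr1:182200001-182400000 over Itpkb with 20, chr6:71200001-71400000 over the CD8 genes with 21, chr11:52000001-52200000 at Tcf7 with 25, chr14:54700001-54900000 at the T cell receptor alpha locus with 24 and chr14:122300001-122500000 over Ubac2 with 28. The seventh was the repeat-rich stretch chr6:47600001-47800000 with 30. In the receptor alpha stretch, 11 of the 12 promoter summits lay at starts of receptor gene segments or Trac, whose annotated starts need not be transcription starts. Apart from the 197 at Trac, these summits had pileups of 25 to 54.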

How the data were processed

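Per the file headers and the study's methods, the authors mapped reads to mm9 with Bowtie2 2.2.5, kept 1 fragment per position (36938606 of 46428124 in the WT library and 27625250 of 36118114 in the Tcf1-deficient library) and called peaks of the WT library over the deficient one with MACS2 2.1.1.20160309 (fragment mode, p limit 1e-05). The deposited values were the pileup at the summit, a coverage signal in WT fragments, the fold enrichment over the control, a ratio with 1 added to the pileup, and the −log10 p-value of each peak; the deposited q-values were not used. The p-values recomputed from pileup and control matched the deposited ones within 0.01 for 100.0% of 21949 peaks. A peak with few fragments has a coarse fold enrichment, and no depth-matched replicate gives its error.

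The control level was computed as (pileup + 1) / fold enrichment − 1. Summits were placed against the NCBIM37 genome, the assembly called mm9, and GENCODE vM1. Promoters were within 1 kb of any annotated transcript start. Shares carry 95% Wilson intervals and medians order-statistic intervals. They cover counting error only, and no test was run, because each group had 1 library. Hub finding, spacing, motif search and intervals were tested on simulated data. Python 3.11.15, numpy 2.4.6, pandas 2.3.3, scipy 1.17.1 and matplotlib 3.10.9 were used.

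The hub rule, gene lists and named hubs were chosen with earlier results of these data known. Hubs are named by their listed genes or by the protein-coding gene holding most summits. Peaks are described singly in the 6 hubs with most summits and the 6 with the highest median pileup. After the values were seen, the same 2 lists without the 5 hubs with control signal, the hubs of listed genes and those at the T cell receptor alpha locus were added, as were the 4 layouts and their 75% limit. Of the listed genes, 2 receptors lie outside chromosomes 1 to 19, and H2-Q1 and Spi1 were not found under those names. The names of 2 hubs and 1 summit window are not reported here, though they enter all counts.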

Additional observations from a re-analysis of the deposited data

Results flagged for a closer look

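Bins of at least 10 summits with a pileup of 25 to 1000 also occurred outside chromosomes 1 to 19, where the hub rule was not applied, and they are given here as values. On chromosome X, the bins chrX:120700001-120800000, chrX:121200001-121300000 and chrX:166400001-166500000 held 15, 12 and 20 summits. Their median control levels in the Tcf1-deficient library were 92.9, 93.9 and 50.5, and 1, 0 and 5 of their peaks reached a fold enrichment of 4, with highest values of 4.16, 2.23 and 16.3. On chromosome Y, the bin chrY:2800001-2900000 held 25 summits with a median control level of 296 and a highest fold enrichment of 2.23. All 4 bins thus had signal in the control library, as the 5 hubs on chromosomes 6, 8 and 11 did, and the cause was not tested.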

How the results depend on the processing

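The 7 results were recomputed under 60 alternatives, of which 31 kept a value within the margin set for it and 29 moved. The 109 hubs became 103 with bins shifted by 50 kb, of which 61 overlapped a hub of the rule (62 of the 109 hubs, 56.9%, overlapped one of them), 98 with a fold enrichment of at least 4 in place of the pileup range and 152 without a pileup minimum. A pileup minimum of 40 left 19 hubs with 303 peaks, a promoter share of 18.4%, a core share of 12.7%, a median pileup of 84, a median spacing of 3822 bp and 71.9% of peaks at 4-fold. A minimum of 8 summits gave 264 hubs with 2787 peaks, 25.7% at promoters, a spacing of 4633 bp and 88.5% at 4-fold, and a minimum of 12 gave 46 hubs with 687 peaks, 17.9%, 3713 bp and 81.4%. Joining peaks whose ends lay within 1 kb left 54 hubs with 633 peaks, 18.5% at promoters, a spacing of 5070 bp and 88.5% at 4-fold. Without a pileup minimum the median pileup was 46. The share at 4-fold was 91.5% when hubs were chosen by that fold and 91.3% without the 5 hubs with control signal. Promoters of 2.5 kb each side raised the promoter share to 31.9%, and starts of protein-coding genes alone lowered it to 18.7%. The core share was 8.22% within 50 bp of the summit and 27.0% for the 6-base core TCAAAG. Under every alternative that kept the promoter limit and annotation, the promoter share stayed at or below 25.7%.

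The number of hubs follows from how the limits are set, and the position of the bins decides which stretches count. At the low end, a pileup near 25 is close to the lowest that was called, and the part of depth was not tested. No paired analysis was possible because each group had 1 library.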
